A study of Homo sapiens with 9 samples.

Results

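Vascular endothelial growth factor (VEGF) signalling and the RAS pathway that it feeds were followed here through 35 genes: the VEGF ligands, their receptors and co-receptors, the hypoxia factors, the adaptors and exchange factors that load RAS, the kinases below RAS, and the enzymes, focal adhesion proteins and survival factors downstream. The genes were taken from a list, and every probe set of the array whose annotation names one of them was used. Of the 35 genes, 34 were measured, with 118 of the 54675 probe sets of the array, and NRAS was not analysed here. The study asked how the RNA of microvesicles (MVs) differs from that of exosomes (EXOs) released by human embryonic stem cells, and what each does to Müller cells of the retina. Affymetrix HG-U133 Plus 2.0 arrays, 9 in all, gave the RNA levels. All 9 samples came from medium of H9, an established human embryonic stem cell line, grown without serum or feeder cells in mTeSR1 on Matrigel, with medium collected after 24 hours at 80% confluence. The 3 MVs samples were pelleted at 16500g for 1 hour, the 3 EXOs samples were pelleted from the remaining supernatant at 120000g for 2 hours, and the 3 samples of non-fractionated vesicles (hESEVs) were pelleted directly at 120000g for 2 hours. The labels and the study's methods differ in the spins for hESEVs, and the labels are given here. No sample was treated further. The samples are pellets of many vesicles from 1 cell line. Per the study's methods the arrays of a group hold separate biological samples, while the labels do not say which cultures they came from. The paper's results name 3 cultures as the source of the MVs and EXOs, so the fractions may share cultures.

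VEGF ligands are secreted and bind receptor tyrosine kinases, of which KDR carries most of the signal of VEGFA in endothelial cells, with neuropilins as co-receptors. An activated receptor recruits SHC1, GRB2 and SOS proteins, which load RAS with GTP, and RAS then drives a kinase cascade that ends in the ERK kinases, while other branches pass through phospholipase C gamma, protein kinase C, SRC and focal adhesion kinase. The pathway is best known for the growth of blood vessels. Under low oxygen, the HIF1A protein escapes degradation, pairs with ARNT and switches on genes that include VEGFA.

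The values are MAS5 signals, intensities on a linear scale that the authors scaled so that each array has the same trimmed mean, 500. A signal is thus relative to the other RNAs on its array. The median signal of an array was 357.9 to 365.3 (MVs), 421.9 to 429.7 (EXOs) or 415.3 to 420.8 (hESEVs), and replicates correlated over all probe sets at 0.821 to 0.827, 0.765 to 0.768 and 0.785 to 0.795. Stem cell markers checked the label: the summed signal of 9 of them ranged over 51971 to 54925 (MVs), 11871 to 14245 (EXOs) and 16961 to 18880 (hESEVs), and all of the 9 but LEFTY1, 8 genes, were higher in MVs. The 3′ control probe set of GAPDH exceeded its 5′ control by a log2 difference of 1.53 in MVs, 0.67 ± 0.17 in EXOs (SD, n = 3 arrays) and 1.04 ± 0.12 in hESEVs. For ACTB the difference was 4.57 ± 0.08 in MVs, 2.61 ± 0.14 in EXOs and 3.24 ± 0.14 in hESEVs. Such a difference is read as how far the labelled RNA reached towards the 5′ end, and both moved with the groups. By electrophoresis the paper found much longer RNAs in MVs than in EXOs, so RNA length was not read from these controls. To judge which signals stood above the array's own background, the 90th percentile of 76 tissue-restricted genes was taken as a background level. It was 710 in MVs, 1237 in EXOs and 959 in hESEVs.

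Of the 34 genes, 6 were higher in MVs than in EXOs: KDR, HIF1A, SHC1, MAP2K2, ACTN1 and VCL. By role they were 1 receptor, 1 hypoxia factor, 1 adaptor, 1 kinase below RAS and 2 proteins of focal adhesions. Their differences ran from 2.43-fold for VCL to 21.6-fold for MAP2K2. No member was called higher in EXOs. A gene was called when its adjusted p from limma (two-sided, Benjamini-Hochberg over 19775 genes) was under 0.05 and its difference at least 2-fold. The 6 genes are 17.6% of the members, where 11.4% of all genes were called higher in MVs. By probe set the shares were 9.32% and 7.23%. Each gene was read from its probe set of highest mean log2 signal. The 34 members have 118 probe sets, where all 19775 genes have 41091. The shares by gene are thus not on equal terms, and the 6 are not read as a trait of the pathway. The 0 genes called higher in EXOs compare with 2.77% of all genes. At an adjusted p under 0.05 with no minimum fold there was 1, NRP2, against 1345 of 19775 genes. The median log2 fold change, MVs minus EXOs, was -0.19 over the members and -0.23 over all genes, and 14 members had a positive value and 20 a negative one. With each array centred on its median, these medians were 0.04 and 0.00, and the sign of the members' median turned. In vesicle pellets, fewer vesicles that carry an mRNA and less of that mRNA in each cannot be told apart. The part of the stem cell markers and of the GAPDH and ACTB control differences in these results was not tested.

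**Figure D1:**
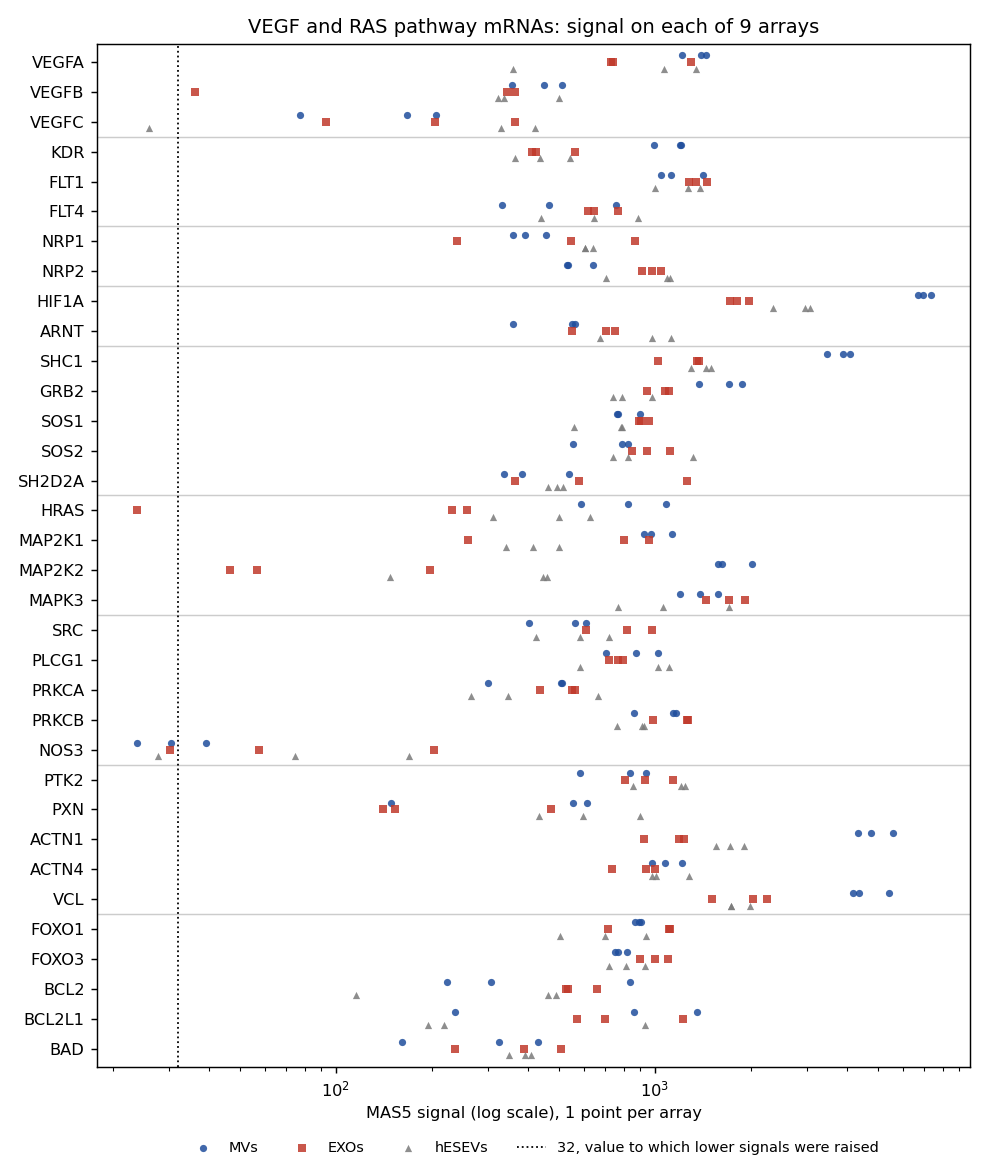
MAS5 signal (log scale) of the 34 genes on each array, ordered by role, with MVs as blue circles, EXOs as red squares and hESEVs as grey triangles (3 arrays each), and a dotted line at 32, the value to which lower signals were raised. HIF1A, SHC1, ACTN1 and VCL lie at or above 3476 on all 3 MVs arrays and at or below 2250 on all 3 EXOs arrays.

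All 6 called genes were higher in MVs than in both other groups, and a stretch of sequence just before a start site of each is printed to show what they share there. The stretches come from RefSeq, build GRCh38.p14, and each lies within the 250 bases before an annotated start, read 5′ to 3′ on the strand of the gene. The capitals mark the GC box GGGCGG, or CCGCCC where it lies on the opposite strand, that is nearest to a start. KDR (chr4:55125621-55125680, minus strand), HIF1A (chr14:61695458-61695512, plus strand), SHC1 (chr1:154970769-154970828, minus strand), MAP2K2 (chr19:4124123-4124170, minus strand), ACTN1 (chr14:68979314-68979373, minus strand) and VCL (chr10:73998039-73998098, plus strand) read as follows.
KDR: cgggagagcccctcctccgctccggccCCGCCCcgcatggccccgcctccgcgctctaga
HIF1A: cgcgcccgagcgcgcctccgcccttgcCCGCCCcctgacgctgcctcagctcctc
SHC1: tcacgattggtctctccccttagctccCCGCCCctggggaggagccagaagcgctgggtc
MAP2K2: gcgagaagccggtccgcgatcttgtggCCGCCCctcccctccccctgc
ACTN1: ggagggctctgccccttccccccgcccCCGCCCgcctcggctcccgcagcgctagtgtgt
VCL: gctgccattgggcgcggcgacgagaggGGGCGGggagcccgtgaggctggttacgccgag
The box began 58 bases before the start in KDR, 28 in HIF1A, 54 in SHC1, 21 in MAP2K2, 44 in ACTN1 and 50 in VCL. On either strand, GGGCGG occurred in that window for 6 of the 6 called genes and for 19 of the 22 members that were not called and had a window, so that it did not set the called genes apart. Over all 27305 genes with a window, 46.2% held it. The core of the hypoxia response element, ACGTG or, where the opposite strand holds it, CACGT, occurred for 2 of the 28 members with a window, MAPK3 and FOXO3, neither of which was called, against 21.7% of all genes. A match is a run of letters and not a shown binding site. VEGFA, FLT4, NRP1, SRC, PTK2 and SH2D2A had no window in the table used.

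The 3 secreted ligands did not pass the test between MVs and EXOs. VEGFA (gene ID 7422), the main inducer of vessel growth, had signals of 1402, 1454 and 1218 in MVs, 1303, 738 and 729 in EXOs, and 360, 1072 and 1348 in hESEVs. EXOs replicate 1 lay among the MVs arrays and the other EXOs arrays below them, and the log2 fold change was 0.61 (standard error 0.24, adjusted p = 0.12). VEGFB, which binds FLT1, had 357, 511 and 451 in MVs, 364, 344 and 36.2 in EXOs, and 338, 500 and 322 in hESEVs. Its groups overlapped, and the single low EXOs array set most of the log2 fold change of 1.39 (standard error 0.89, adjusted p = 0.30), which was 0.30 without that array. VEGFC, the ligand of FLT4 in lymphatic vessels, had 167, 77.1 and 207 in MVs, 205, 365 and 93.0 in EXOs, and 25.9, 329 and 422 in hESEVs. These signals overlapped throughout and lay under the background level in every group (log2 fold change -0.46, adjusted p = 0.67). Of the ligands, VEGFA in MVs was above that level, with the probe set used for it. The other VEGFA probe sets had MVs means of 300, 575 and 111, all under the level. Their log2 fold changes were -0.11, 0.66 and -1.87.

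Of the 3 receptors, KDR was higher in MVs. KDR (gene ID 3791), also called VEGFR-2, had signals of 997, 1200 and 1212 in MVs, 563, 426 and 413 in EXOs, and 438, 364 and 542 in hESEVs. The MVs arrays all lay above the other 6, and EXOs and hESEVs overlapped. KDR was higher in MVs by 2.45-fold over EXOs (log2 fold change 1.29, standard error 0.22, adjusted p = 0.0046), with a single probe set behind it. Its EXOs mean, 467 ± 83.0 (SD, n = 3), was under the background level of 1237, so that the size of the fold is uncertain. FLT1 (gene ID 2321), or VEGFR-1, a receptor of VEGFA and VEGFB, had 1123, 1416 and 1049 in MVs, 1460, 1279 and 1350 in EXOs, and 1274, 1006 and 1390 in hESEVs. With the probe set used for it, FLT1 was above the background level in all 3 groups. The groups overlapped, and the log2 fold change was -0.20 (standard error 0.16, adjusted p = 0.41). The other FLT1 probe sets had means of 420 to 812 in EXOs and 83.6 to 824 in hESEVs, all under the level. In MVs their means of 774 and 714 were above the level, and those of 705, 503 and 220 were under it. FLT4, or VEGFR-3, had 333, 759 and 466 in MVs, 620, 644 and 765 in EXOs, and 441, 646 and 884 in hESEVs, with overlap and a log2 fold change of -0.46 (adjusted p = 0.38). Because KDR and FLT1 are best known from endothelial cells, 9 endothelial markers were read beside them. Their summed signal ranged over 2322 to 2941 (MVs), 3104 to 3717 (EXOs) and 3165 to 3594 (hESEVs), 0 of the 9 were called between MVs and EXOs in either direction, and their median log2 fold change was -0.47. The defining markers CDH5 and VWF had means of 387 ± 60.5 and 84.0 ± 8.35 in MVs, below the background level, PECAM1 was above it in all 3 groups (966 ± 179 in MVs and 1413 ± 199 in EXOs), and no marker was at 0. Of 7 markers of early mesoderm and endoderm, none was higher in MVs and 1, EOMES, was higher in EXOs (436 ± 105 in MVs and 1143 ± 153 in EXOs, both below the background level).

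The neuropilins, co-receptors that hold VEGF on its receptors, were not called. NRP2 (gene ID 8828) had 640, 533 and 537 in MVs, 1048, 978 and 915 in EXOs, and 1117, 706 and 1094 in hESEVs. Every MVs array lay below every EXOs and hESEVs array. NRP2 was 1.72-fold lower in MVs than in EXOs (log2 fold change -0.79, standard error 0.20, adjusted p = 0.027), short of the 2-fold threshold, and it was the 1 member with an adjusted p under 0.05 and a negative value. Its MVs and EXOs means were below the background level of their groups. NRP1 had 361, 457 and 393 in MVs, 240, 546 and 870 in EXOs, and 607, 603 and 640 in hESEVs, with the EXOs arrays on both sides of the others (log2 fold change -0.27, adjusted p = 0.73).

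HIF1A was the member with the smallest p. HIF1A (gene ID 3091), the subunit of hypoxia-inducible factor 1 that oxygen controls, had signals of 7342, 6694 and 6943 in MVs, 1818, 1982 and 1722 in EXOs, and 3078, 2970 and 2345 in hESEVs. The 3 groups did not overlap: MVs were highest, hESEVs between and EXOs lowest, and all 3 means were above the background level. HIF1A was higher in MVs by 3.80-fold over EXOs (log2 fold change 1.93, standard error 0.10, adjusted p = 2.5e-06), with a single probe set. With quantile normalization the log2 fold change was 0.73, below 2-fold. ARNT (gene ID 405), its partner, had 360, 564 and 550 in MVs, 549, 704 and 753 in EXOs, and 1126, 982 and 676 in hESEVs. MVs and EXOs overlapped and ARNT did not pass the test (log2 fold change -0.46, standard error 0.30, adjusted p = 0.31).

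Of the 5 adaptors and exchange factors that link receptors to RAS, SHC1 was higher in MVs. SHC1 (gene ID 6464), an adaptor that binds phosphorylated receptors, had 3895, 4088 and 3476 in MVs, 1023, 1382 and 1359 in EXOs, and 1498, 1445 and 1299 in hESEVs. The MVs arrays stood above the other 6, and EXOs and hESEVs overlapped. SHC1 was higher in MVs by 3.07-fold over EXOs (log2 fold change 1.62, standard error 0.15, adjusted p = 9.4e-05). The call was lost with quantile normalization (0.94) and with the 2 probe sets of SHC1 averaged (0.86), the other probe set having a log2 fold change of 0.10 at signals of 60.0 to 163 in MVs and EXOs. GRB2, the adaptor that carries SOS proteins to SHC1 or to the receptor, had 1380, 1884 and 1705 in MVs, 949, 1077 and 1107 in EXOs, and 738, 788 and 980 in hESEVs. MVs did not overlap with the other groups, and GRB2 was higher in MVs by 1.58-fold over EXOs (log2 fold change 0.66, standard error 0.16, adjusted p = 0.023), short of 2-fold. Its EXOs and hESEVs means, 1044 and 835, were under the background level of their groups. The other GRB2 probe sets had log2 fold changes of -0.13 and -0.69. The RAS exchange factors SOS1 and SOS2 had log2 fold changes of -0.19 and -0.44 (adjusted p = 0.48 and 0.21). SH2D2A, an adaptor that binds KDR, had a log2 fold change of -0.65 (adjusted p = 0.36), with a range of 366 to 1260 in EXOs.

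Among RAS and the kinases below it, 1 of 4 measured genes was called. MAP2K2 (gene ID 5605), or MEK2, which phosphorylates the ERK kinases, had 1630, 2015 and 1581 in MVs, 46.5, 197 and 56.5 in EXOs, and 446, 459 and 148 in hESEVs. All MVs arrays lay above all others, and EXOs and hESEVs overlapped at their edge. MAP2K2 was higher in MVs by 21.6-fold over EXOs (log2 fold change 4.43, standard error 0.58, adjusted p = 0.00095). Its EXOs mean of 99.9 ± 84.0 (SD, n = 3) was far under the background level, so the fold is uncertain in size, and with its 3 probe sets averaged it was 1.81 on the log2 scale. HRAS (gene ID 3265), a RAS GTPase, had 827, 1087 and 586 in MVs, 23.8, 259 and 232 in EXOs, and 625, 312 and 500 in hESEVs. MVs and EXOs did not overlap, hESEVs overlapped with MVs, and the 6.49-fold difference between MVs and EXOs was not called (log2 fold change 2.70, standard error 0.81, adjusted p = 0.051). Its EXOs mean of 172 ± 129 was far under the background level, which leaves the size of the fold uncertain. The log2 fold change ranged from 1.72 to 3.23 over 21 alternatives, of which 8 called it, among them the fit without EXOs replicate 1, the array at 23.8 (1.72). MAP2K1, or MEK1, had 974, 1133 and 927 in MVs, 804, 260 and 962 in EXOs, and 341, 500 and 416 in hESEVs. MVs and EXOs overlapped (log2 fold change 0.78, standard error 0.46, adjusted p = 0.26). MAPK3, or ERK1, was above the background level in all 3 groups, with 1203 to 1580 for MVs, 1450 to 1927 for EXOs and 766 to 1705 for hESEVs, and had a log2 fold change of -0.28 (adjusted p = 0.25).

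None of the 5 other enzymes downstream of the receptor was called. SRC, a tyrosine kinase of the cell membrane, had a log2 fold change of -0.61 (adjusted p = 0.17). PLCG1, phospholipase C gamma, had 0.17 (adjusted p = 0.59), and the protein kinases C PRKCA and PRKCB had -0.26 and -0.16 (adjusted p = 0.62 and 0.57). NOS3, the nitric oxide synthase of endothelial cells, had signals of 23.9 to 39.1 in MVs and 30.3 to 203 in EXOs, and signals under 32 were raised to 32, with a log2 fold change of -1.07 (standard error 0.64, adjusted p = 0.27).

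Of the 5 focal adhesion genes, ACTN1 and VCL were higher in MVs. ACTN1 (gene ID 87), alpha-actinin 1, which crosslinks actin filaments, had 4340, 4775 and 5578 in MVs, 1238, 1195 and 926 in EXOs, and 1719, 1560 and 1912 in hESEVs. The 3 groups did not overlap, with hESEVs between the fractions. ACTN1 was higher in MVs by 4.39-fold over EXOs (log2 fold change 2.13, standard error 0.15, adjusted p = 2.1e-05), and its EXOs mean of 1120 ± 169 was just under the background level. VCL (gene ID 7414), vinculin, which ties integrin adhesions to actin, had 4377, 5431 and 4186 in MVs, 2039, 2250 and 1510 in EXOs, and 1997, 1735 and 1738 in hESEVs. MVs stood above both other groups, which overlapped, and VCL was higher in MVs by 2.43-fold over EXOs (log2 fold change 1.28, standard error 0.17, adjusted p = 0.001). The call was lost with quantile normalization (0.20) and with its 2 probe sets averaged (0.35). ACTN4, alpha-actinin 4, had 1219, 1079 and 978 in MVs and 1006, 942 and 734 in EXOs, with overlap (log2 fold change 0.30, standard error 0.19, adjusted p = 0.30). PTK2, focal adhesion kinase, was at -0.30 on the log2 scale (adjusted p = 0.41), and the scaffold PXN, paxillin, 0.77 (standard error 0.73, adjusted p = 0.49).

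None of the 5 survival genes was called. The transcription factors FOXO1 and FOXO3, which AKT holds out of the nucleus, had log2 fold changes of -0.11 and -0.36 (adjusted p = 0.74 and 0.19). The probe set used for FOXO3 did not overlap, with 820, 750 and 767 in MVs and 1102, 1001 and 897 in EXOs. Another FOXO3 probe set did not overlap in the opposite direction, with 868, 793 and 857 in MVs and 734, 710 and 750 in EXOs (0.20). The remaining FOXO3 probe sets overlapped, so the direction depended on the probe set. BCL2 and BCL2L1, which block apoptosis, had -0.57 and -0.28 (adjusted p = 0.45 and 0.78), and BAD, which opposes them, had -0.35 (adjusted p = 0.68). The replicates of BCL2L1 spread widely, from 236 to 1356 in MVs and from 570 to 1229 in EXOs.

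**Figure D2:**
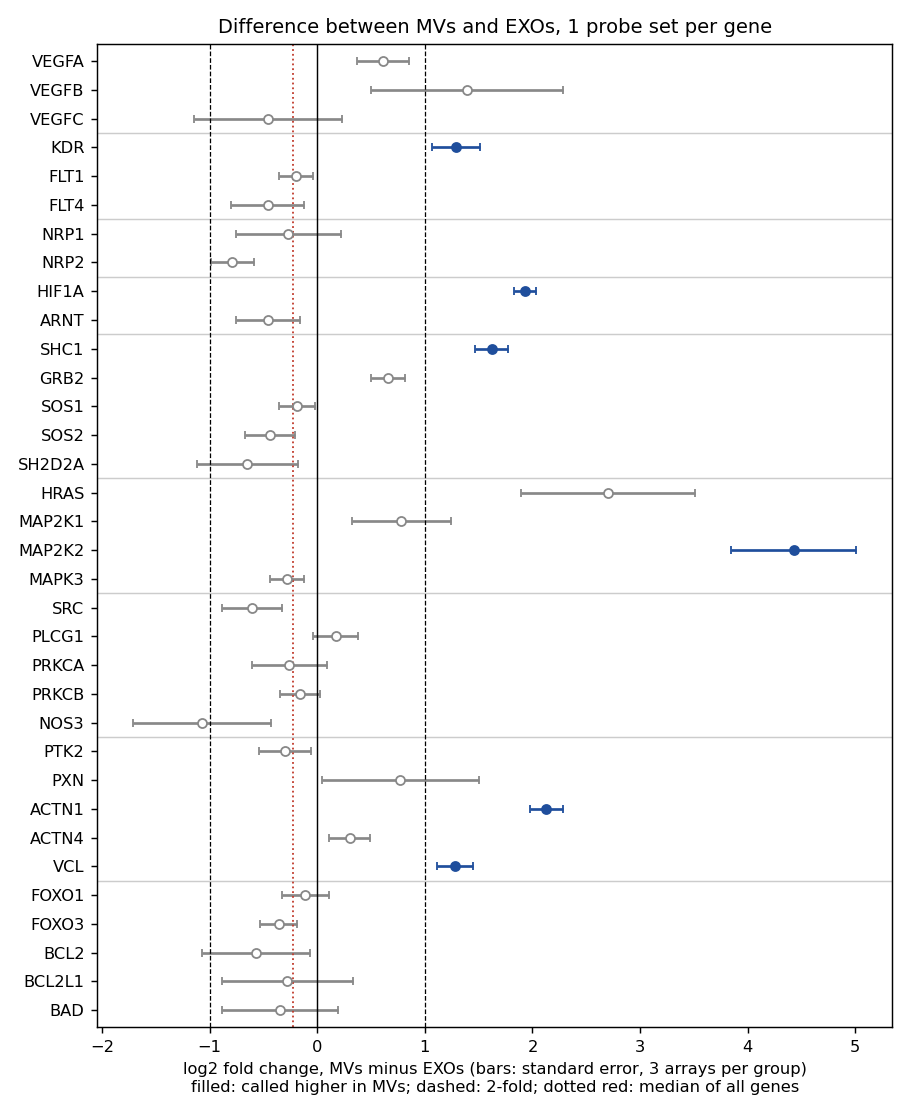
Log2 fold change, MVs minus EXOs, of the 34 genes (points, with bars for the standard error, 3 arrays per group), with called genes filled in blue, dashed lines at 2-fold and a dotted red line at the median of all genes, -0.23. The 6 called genes lie between 1.28 and 4.43, HRAS lies at 2.70 with a standard error of 0.81, and the other genes lie between -1.07 and 1.39.

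The background level was passed by different numbers of members in the 3 groups. Of the 34 genes, 21 had a mean above the background level in MVs (61.8%, against 33.6% of all genes), 5 in EXOs (14.7%, against 10.7%) and 10 in hESEVs (29.4%, against 21.2%). The 5 in EXOs were HIF1A, SHC1, VCL, FLT1 and MAPK3. The other probe sets of SHC1, VCL and FLT1 were under the EXOs level. Each gene was read from the probe set with its highest mean log2 signal. The 34 members have 118 probe sets, and all 19775 genes have 41091. The level also differed between groups (710, 1237 and 959), so neither members and all genes nor the groups are compared on equal terms. In no group was the mean above the level for 12 genes, VEGFB, VEGFC, FLT4, NRP1 and NOS3 among them, and differences for these rest on signals that tissue-restricted genes also reach.

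The non-fractionated hESEVs were set against each fraction using 1 fit to the 9 arrays, and both comparisons share the hESEVs arrays and use arrays of the comparison above. Against MVs, 6 of the 34 members were lower in hESEVs (17.6%), where 7.17% of all genes were, and these were KDR, HIF1A, SHC1, MAP2K2, ACTN1 and VCL. No member was called higher in hESEVs than in MVs, where 1.56% of all genes were, and at an unadjusted limma p under 0.05 there were 2, NRP2 and ARNT. The median log2 fold change, hESEVs minus MVs, was -0.16 over the members and 0.15 over all genes. KDR was at -1.36 (standard error 0.26, adjusted p = 0.005), HIF1A at -1.33 (0.12, 1.9e-05), SHC1 at -1.43 (0.14, 4.1e-05), ACTN1 at -1.50 (0.15, 4.1e-05) and VCL at -1.35 (0.16, 0.00016). MAP2K2 was at -2.47 (standard error 0.63, adjusted p = 0.024), and this call was lost without MVs replicate 1, 2 or 3 (-2.52, -2.36 and -2.54), without hESEVs replicate 3 (-1.94), with its probe sets averaged (-1.12) and in the methods' unpaired test after adjustment (adjusted p = 0.083). GRB2 was at -0.99 (standard error 0.18, adjusted p = 0.0032), just short of 2-fold, and NRP2 at 0.75 (0.22, 0.049). MAP2K1 was at -1.28 but did not pass the test (standard error 0.43, adjusted p = 0.075). With quantile normalization, 2 members were lower in hESEVs in place of 6, against 621 of 19775 genes. ACTN1 (-0.65), HIF1A (-0.29), SHC1 (-0.75) and VCL (-0.51) were no longer called. Averaging the probe sets of a gene also left 2, and ACTN1 (-0.98), SHC1 (-0.94) and VCL (-0.74) were no longer called.

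Against EXOs, no member was called in hESEVs in either direction, where 3.28% of all genes were called higher and 0.172% lower. At an unadjusted limma p under 0.05 and at least 2-fold, 3 members were higher, HRAS (log2 fold change 1.89), MAP2K2 (1.96) and PXN (1.51), and 0 were lower. More of all genes passed this looser threshold too, in both directions. The 3 members are to be set against these counts and not against the 3.28%, which belongs to the adjusted p. HIF1A (0.60, standard error 0.12, adjusted p = 0.012) and ACTN1 (0.63, standard error 0.15, adjusted p = 0.031) passed the adjusted p but not the fold. The other called genes of the first comparison, KDR (-0.07, adjusted p = 0.95), SHC1 (0.18, 0.64) and VCL (-0.07, 0.91), did not pass. The median log2 fold change, hESEVs minus EXOs, was -0.07 over the members and -0.00 over all genes. Without EXOs replicate 2, 1 member was called higher in hESEVs and 1 lower.

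**Figure D3:**
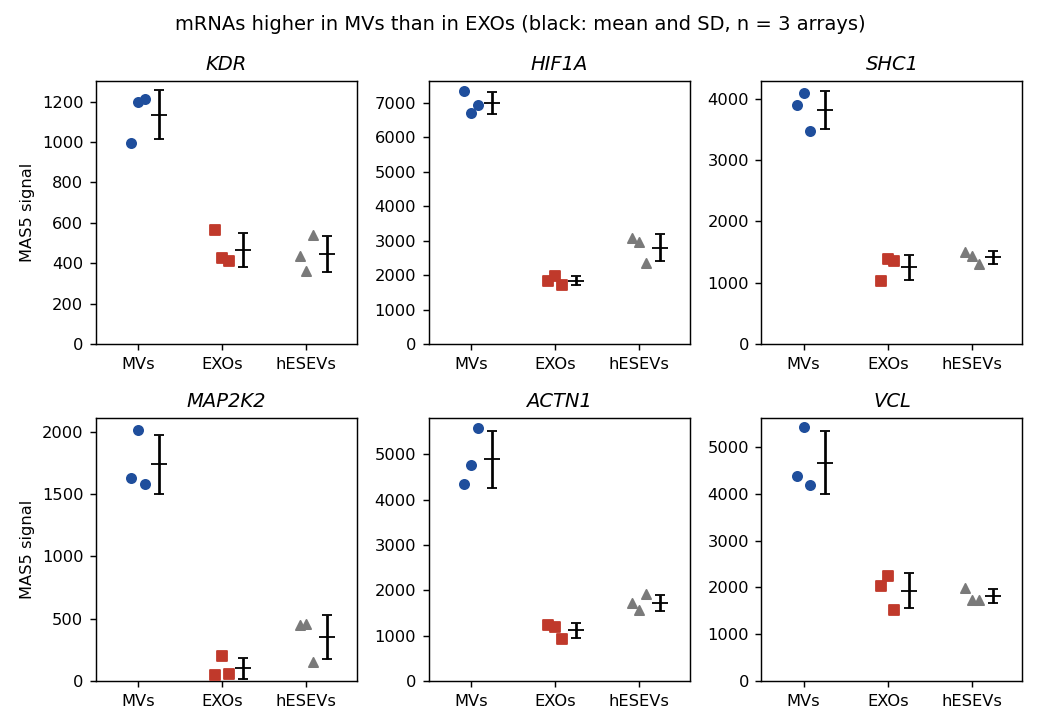
MAS5 signal (linear scale from 0) of the 6 genes called higher in MVs than in EXOs, 1 panel per gene, with 1 point per array and the mean and SD of the 3 arrays in black. In every panel the 3 MVs arrays lie above the other 6, and hESEVs lie between the fractions in HIF1A and ACTN1 and overlap with EXOs in KDR, SHC1, MAP2K2 and VCL.

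Because 25 of the 34 genes have several probe sets, up to 11 for NRP2, the probe sets were also tested one by one among 54613. Of the 118, 11 were higher in MVs (9.32%, against 7.23% of all probe sets) and 0 were higher in EXOs (against 1.97%), where at an unadjusted limma p under 0.05 and at least 2-fold there was 1, of ARNT (-1.85). The 11 belonged to 9 genes, and 3 of these genes were called only through a probe set that does not represent them, named here after their values were seen. A probe set of PTK2 had 1106, 881 and 1236 in MVs, 383, 298 and 387 in EXOs, and 635, 757 and 506 in hESEVs, 3.01-fold higher in MVs than in EXOs (adjusted p = 0.0042). The other 3 probe sets of PTK2 had log2 fold changes of -0.30, 0.13 and 0.24. A probe set of BCL2L1 had 558, 677 and 542 in MVs, 135, 91.5 and 168 in EXOs, and 334, 265 and 555 in hESEVs, a log2 fold change of 2.21 (adjusted p = 0.020) where its others had -0.90, 0.25 and -0.28. A probe set of BAD had 189, 500 and 243 in MVs, 29.8, 27.8 and 60.6 in EXOs, and 77.8, 268 and 396 in hESEVs, and its log2 fold change was 2.84 (adjusted p = 0.021), while its others had 1.91 and -0.35. For these 3 genes the answer thus depended on the probe set. The EXOs signals of all 3 probe sets were below the background level, and so were the MVs means of those of BCL2L1 (593) and BAD (311).

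The probe sets of the called genes differed too. In ACTN1, 3 of 4 probe sets were called, at 2.13, 1.55 and 3.91, and the fourth, with signals of 84.3 to 220 in MVs and EXOs, had -0.58. In MAP2K2 the others had -0.49 and 1.49, in VCL the other had -0.58 and in SHC1 0.10, at signals of up to 302 in MVs and EXOs. KDR and HIF1A have 1 probe set each, so that no second one bears on them. Lower in MVs at an adjusted p under 0.05 but short of 2-fold were 3 probe sets, of NRP2 (-0.79), ARNT (-0.98) and PRKCB (-0.89). The median log2 fold change was -0.19 over the member probe sets and -0.29 over all.

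**Figure D4:**
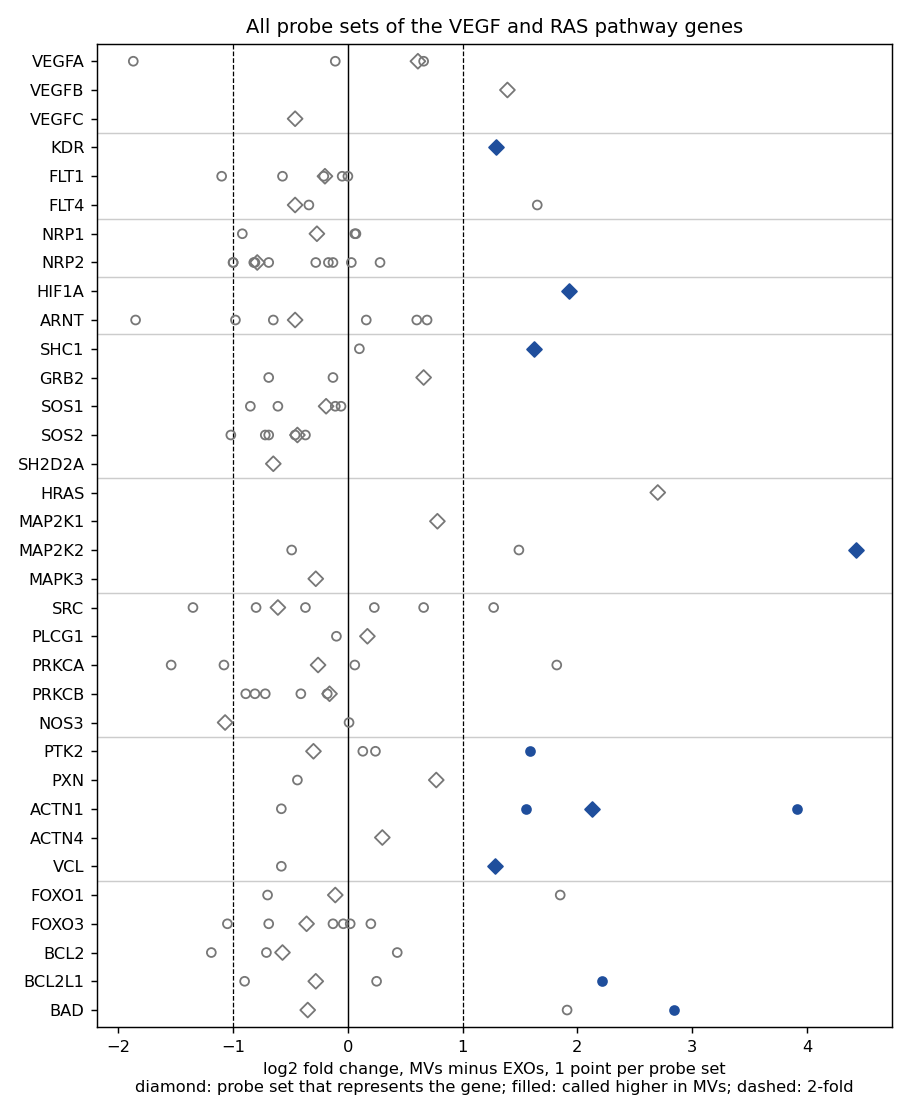
Log2 fold change, MVs minus EXOs, of all 118 probe sets, 1 row per gene, with a diamond for the probe set that represents the gene, blue fill for probe sets called higher in MVs and dashed lines at 2-fold. Filled points that are not diamonds lie at 1.59 in PTK2, 2.21 in BCL2L1, 2.84 in BAD and 1.55 and 3.91 in ACTN1.

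Other genes of the 2 pathways were counted from a list of 88, of which 78 were measured. Of these, 12 were higher in MVs (15.4%), 1 was higher in EXOs (1.28%) and 65 were not called, against 11.4% and 2.77% of all genes, with a median log2 fold change of 0.10 against -0.23 over all genes. These shares are near those of all genes and set the list apart in neither direction. The smallest p was that of HSP90AA1, a chaperone of many kinases, with 31307, 33930 and 33128 in MVs, 3161, 3152 and 2879 in EXOs, and 8944, 7949 and 6997 in hESEVs, and it was higher in MVs by 10.7-fold over EXOs (adjusted p = 1.3e-07). HSP90AB1, its close relative, was 7.45-fold higher (11601 ± 458 against 1591 ± 381, adjusted p = 7.8e-06). ACTB, the actin to which vinculin and alpha-actinin link, was 7.75-fold higher (44141 ± 5138 against 5674 ± 200, adjusted p = 4.6e-07). RHOA, a GTPase that governs actin fibres and adhesions, was 6.37-fold higher (6233 ± 566 against 978 ± 84.1, adjusted p = 1.1e-06), with an EXOs mean under the background level. In these 4 genes the hESEVs arrays lay between the fractions and did not overlap with either. The 1 gene higher in EXOs was PRKCE, a protein kinase C, with 162, 71.9 and 84.8 in MVs, 726, 512 and 381 in EXOs, and 92.4, 120 and 632 in hESEVs, a log2 fold change of -2.39 (standard error 0.55, adjusted p = 0.018), both means under the background level.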

How the data were processed

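RNA of MVs, EXOs and hESEVs was measured on 3 arrays each. The authors deposited MAS5 signals, an intensity per probe set scaled to a target of 500 (MAS5 version not given in the sources used here). Their own RMA normalization is not in these values and was not repeated. Tests left out 62 control probe sets of 54675. Of the others, 41091 were annotated with 1 gene, 1801 with several and 11721 with no single gene. Of the 41091 probe sets, 41037 had a gene ID found in RefSeq (GRCh38.p14), and 0 had a symbol updated. Signals under 32, 3.39 to 5.5% of an array, were raised to 32 and log2 was taken. For each of 19775 genes, the probe set annotated with that gene alone whose log2 signal averaged highest across the 9 arrays was used. Of the member probe sets, 3 were annotated with several genes and were used only in the tests by probe set. MVs and EXOs were compared on their 6 arrays, and hESEVs in a fit of all 9, with limma 3.58.1 in R 4.3.3 (lmFit, eBayes with a trend, two-sided, Benjamini-Hochberg over all features), called at an adjusted p under 0.05 and at least 2-fold. Fold changes are on the floored log2 scale. The fit was tested on simulated data. Precision is limited by the number of arrays.

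The members and lists were chosen with earlier results of these data known. Every member is named with its values or in a range, and values on every array are given for called members, ligands, receptors and RAS genes. Of other pathway genes, the 4 called genes of smallest p in each direction are named, some by mean and SD. Values on every array for further members, and members named for a probe set, were chosen after their values were seen. For the background level, the 90th percentile was taken over 76 measured tissue-restricted genes (of 88 listed), of which 2 were higher in MVs and 6 in EXOs. Alternatives were limma without adjustment, the methods' unpaired Student test with and without adjustment, no minimum fold, quantile normalization, median centring, a shift to 18 spike-in probe sets, a floor of 1 or 100, a low-signal filter, no trend, other uses of a gene's probe sets, the replicate number as a block, a different set of arrays in the model and leaving out replicates in turn. Python 3.11.15, pandas 2.3.3, numpy 2.4.6 and matplotlib 3.10.9 made tables and figures.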

Additional observations from a re-analysis of the deposited data

How the results depend on the processing

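Of 178 counts under an alternative, 165 lay within 1.5 times the reported count. A count of 0 against a reported 0 was taken as within, and most reported counts were 0. The 165 thus do not measure how stable the calls are. Genes higher in MVs than in EXOs were 4 to 7 in place of 6: 4 with quantile normalization (KDR, MAP2K2 and ACTN1, with HRAS added at 2.79 and HIF1A, SHC1 and VCL lost), 4 with averaged probe sets (SHC1 and VCL lost), and 5 with the filter on low signals, which removed MAP2K2, or without probe sets shared between transcripts, which left SHC1 and VCL without a probe set. Leaving out 1 replicate gave 6 to 7. Genes higher in EXOs were 1 with no minimum fold, against 1345 of 19775 genes. Genes lower in hESEVs than in MVs were 2 with quantile normalization, 2 with averaged probe sets and 5 to 7 with 1 replicate left out, and genes higher were 1 with no minimum fold and 0 to 1 with 1 replicate left out. Genes higher in hESEVs than in EXOs were 3 at the limma p without adjustment, 2 with no minimum fold and 0 to 1 with 1 replicate left out, and genes lower were 0 to 1. Probe sets higher in EXOs were 1 without adjustment, 3 with no minimum fold and 0 to 1 with 1 replicate left out (1 without MVs replicate 1 or 3). The cause of these shifts was not tested. Of the 34 genes, 21 kept 1 sign, MVs minus EXOs, under every alternative that gave a value. With median centring, which moved the median of all genes from -0.23 to 0.00, FLT1 (0.03), FOXO1 (0.12), PRKCB (0.07) and SOS1 (0.05) turned positive. With averaged probe sets BAD (1.47), BCL2L1 (0.32), FLT4 (0.29), FOXO1 (0.35) and PTK2 (0.41) turned positive and GRB2 (-0.05) and VEGFA (-0.18) negative, and without shared probe sets FOXO3 (0.20) and PTK2 (1.59) turned positive. With 1 replicate left out, BAD ranged from -0.65 to 0.05 (without MVs replicate 1), BCL2L1 from -0.81 to 0.46 (positive without MVs replicate 3 and, at 0.04, without EXOs replicate 3), VEGFC from -0.98 to 0.01 (without EXOs replicate 2) and NRP1 from -0.78 to 0.15 (without EXOs replicate 3). None of these but PTK2 without shared probe sets passed the test. With the replicate number as a replicate block, 6 genes were higher in MVs than in EXOs and 6 lower in hESEVs than in MVs, as reported, and no call of the 34 genes between MVs and EXOs changed. Member probe sets higher in MVs were then 9 in place of 11. Deviations of arrays with the same number correlated at -0.011 to 0.013, so the numbers were not taken to pair arrays. This does not show that the fractions came from separate cultures, and a pairing other than by number was not fitted. Signals under the background level limit what can be said of 12 genes in every group.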

Other observations

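PGF, placental growth factor, a further ligand of FLT1 that is not among the 35 genes, was singled out after its values were seen. The probe set that represents it had signals of 12523 to 19365 (MVs), 12706 to 15369 (EXOs) and 9211 to 10797 (hESEVs), all above the background level. MVs and EXOs overlapped (log2 fold change 0.11, standard error 0.17, adjusted p = 0.67 from limma). The other PGF probe set had 39.6 to 199 (MVs), 46.9 to 135 (EXOs) and 58.5 to 167 (hESEVs), all under the background level. Which of them follows the PGF transcript was not tested.

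Further called genes of the pathway list, whose share called was near that of all genes, are given here. The 14-3-3 proteins YWHAZ and YWHAE, which bind phosphorylated partners such as BAD and FOXO proteins, were 3.77-fold and 6.10-fold higher in MVs than in EXOs (adjusted p = 3.1e-05 and 0.00024). RAC1, a GTPase of cell migration, was 3.95-fold higher (5969 ± 251 in MVs and 1525 ± 262 in EXOs, n = 3 arrays each, adjusted p = 1.4e-05 from limma). The RAS relatives RRAS2 and RALA were 4.05-fold and 2.15-fold higher (adjusted p = 1.1e-05 and 0.00023), and the phosphatase PTPN11, or SHP2, 2.94-fold (adjusted p = 0.00067). HSPB1, a small heat shock protein phosphorylated below p38, was 34.4-fold higher, with an EXOs mean of 45.7 ± 19.0 near the value of 32 to which low signals were raised, which makes its fold uncertain in size. PRKCZ was 3.66-fold higher (adjusted p = 0.020). The EXOs means of YWHAE (689), RRAS2 (929), PTPN11 (728) and PRKCZ (326) were also under the background level of 1237, so that their folds are uncertain in size. These genes were chosen after their values were seen.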
